A study of Mus musculus with 6 samples.

Results

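The genes described here encode alternative subunits of the BAF complex, the mammalian SWI/SNF chromatin remodeller. They are 10 listed genes, found by exact symbol among the 20325 genes of each file, and all 10 were present. Of these, 5 are the forms typical of embryonic stem cells and dividing progenitors (Smarca4, Smarcc1, Smarcd1, Actl6a and Phf10), and 5 are their paralogs typical of neural cells (Smarca2, Smarcc2, Smarcd3, Actl6b and Dpf1). RNA was sequenced from neural stem cells of mixed 129/Black 6 mice at postnatal day 4. All animals were homozygous for a doxycycline-inducible cassette of Oct4, Sox2, c-Myc and Klf4 (Stemcca) at ColA1 and carried 1 copy of the rtta transactivator at Rosa26 (heterozygous), so both groups carry the same alleles and received the same doxycycline until day 7. The cells were fixed, permeabilised, stained and sorted. One group was positive for Nanog and E-cadherin (Nanog+E-cadherin+, n = 3) and the other positive for Nanog alone (Nanog+E-cadherin-, n = 3), with replicate numbers 1 to 3 in each. No unsorted or uninduced sample is compared here, so the values show how the populations differ and not what induction changed. Separate cultures or animals behind the replicates are not stated in the labels, so each p-value speaks of the spread among these 6 libraries, which may be technical.

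The BAF complex uses ATP to slide and evict nucleosomes, and it is assembled from gene families of which usually a single paralog fills each position. In embryonic stem cells the assembly contains Smarca4 as its ATPase, with Smarcc1, Smarcd1 and Actl6a. Neural progenitors add Smarca2 and Smarcc2 and use Phf10 and Actl6a. When they leave the cell cycle and become neurons, Actl6a and Phf10 are exchanged for Actl6b and for Dpf1 or Dpf3. Smarcc1 is also known as a promoter of reprogramming, and Smarca2 and Smarcc2 have been described as obstacles to it. The comparison therefore sets subunits of the pluripotent assembly beside those of the neural one in neural stem cells induced with the reprogramming cassette.

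The libraries held between 8851110 and 39630916 expected counts. Cdh1, which encodes the E-cadherin of the gate, stood between 104 and 143 CPM (counts scaled to a common library size with TMM factors) in Nanog+E-cadherin+ libraries and between 15.4 and 20.2 CPM in Nanog+E-cadherin- libraries, while Nanog overlapped (101 to 131 against 78.6 to 135 CPM). Markers were summed as CPM of library totals. Neural stem and radial glia markers (9 genes) summed to between 1513 and 4511 CPM in Nanog+E-cadherin+ and between 1890 and 4367 CPM in Nanog+E-cadherin- libraries, so RNA of the starting cell type was present in both. Neuron markers (15 genes) summed to between 299 and 950 against between 516 and 1370 CPM. The 10 markers of dividing cells summed to between 2052 and 2976 against between 1097 and 1366 CPM, where the populations did not overlap. Microglia markers stayed at or under 4.08 CPM in all. Nanog+E-cadherin- replicates 2 and 3 stand apart: 6 genes of unrelated function taken as a sign of background sequence, and chosen from earlier results on these data, summed to 824 and 467 CPM there, against 1.41 to 83.4 CPM in the other libraries. Where leaving them out turned a fold change, that value stands beside it. Pluripotency markers (12 genes) summed to between 480.3 and 777 against between 433 and 473 CPM, also without overlap, and all 8 that were tested were fitted higher in Nanog+E-cadherin+ cells (median log2 fold change 1.01). Within this list Pou5f1 was the largest part of every sum, and without it the populations would overlap. It stood at 476, 303 and 304 CPM in Nanog+E-cadherin+ replicates 1 to 3. In Nanog+E-cadherin- replicates 1 to 3 it stood at 248, 321 and 308 CPM. Pou5f1 encodes Oct4, which the cassette also carries, and RNA of both sources was not told apart. Nanog stood between 84.6 and 140.5 CPM, while Zfp42 stayed at or under 0.567 CPM. Fibroblast markers (6 genes) summed to between 315 and 3211 against between 407 and 1770 CPM.

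None of the 9 subunits that could be tested was called as different between the populations, and Actl6b, the tenth, did not pass the filter on low counts. With population as the single term of edgeR's quasi-likelihood fit, adjusted by Benjamini-Hochberg over 13460 genes, 0 of 9 passed an adjusted p of 0.05 and 0 had an unadjusted p under 0.05, where 0% of all genes passed and 2.67% had an unadjusted p under 0.05. With the replicate number as a block, 0 of 9 passed against 0.305% of all genes, and 1 of 9, Smarcc2, had an unadjusted p under 0.05 against 10.7% of all genes. Cdh1 was fitted 7.39-fold higher in Nanog+E-cadherin+ cells with group only. Its adjusted p in edgeR's test was 0.0608 there and 0.00177 with the block. The group-only test thus missed the gene of the gate itself, so a subunit without a call is not shown to be equal. DESeq2 called 0 of 9 without and with the block, against 0.0966% and 2.26% of all genes, and limma-voom called 0 of 9 in both, against 0% and 1.96%. For none of the 9 were all libraries of one population above all those of the other, against 6.98% of all genes tested. The median log2 fold change (Nanog+E-cadherin+ over Nanog+E-cadherin-, as for every log2 fold change given) was -0.13 over the 9, beside -0.01 over all genes. It was 0.03 over the 5 progenitor-type subunits, of which 3 were fitted higher and 2 lower, and -0.46 over the 4 tested neural-type ones, all fitted lower. For Smarca2 and Smarcd3 this direction rests on 1 library: without Nanog+E-cadherin- replicate 3 they were fitted higher (0.60 and 0.69). Smarcc2 and Dpf1 were still lower there (-0.29 and -0.48). With any single library left out Smarcc2 stayed lower (-0.52 to -0.097), while Dpf1 turned without Nanog+E-cadherin- replicate 1 (0.26). Over all genes 51.5% were fitted lower. With the block, log2 fold changes were 0.09 ± 0.15 (SE) for Smarcc1, 0.05 ± 0.14 for Smarcd1 and 0.11 ± 0.14 for Actl6a. They were -0.0082 ± 0.16 for Phf10 and -0.14 ± 0.22 for Dpf1.

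**Figure D1:**
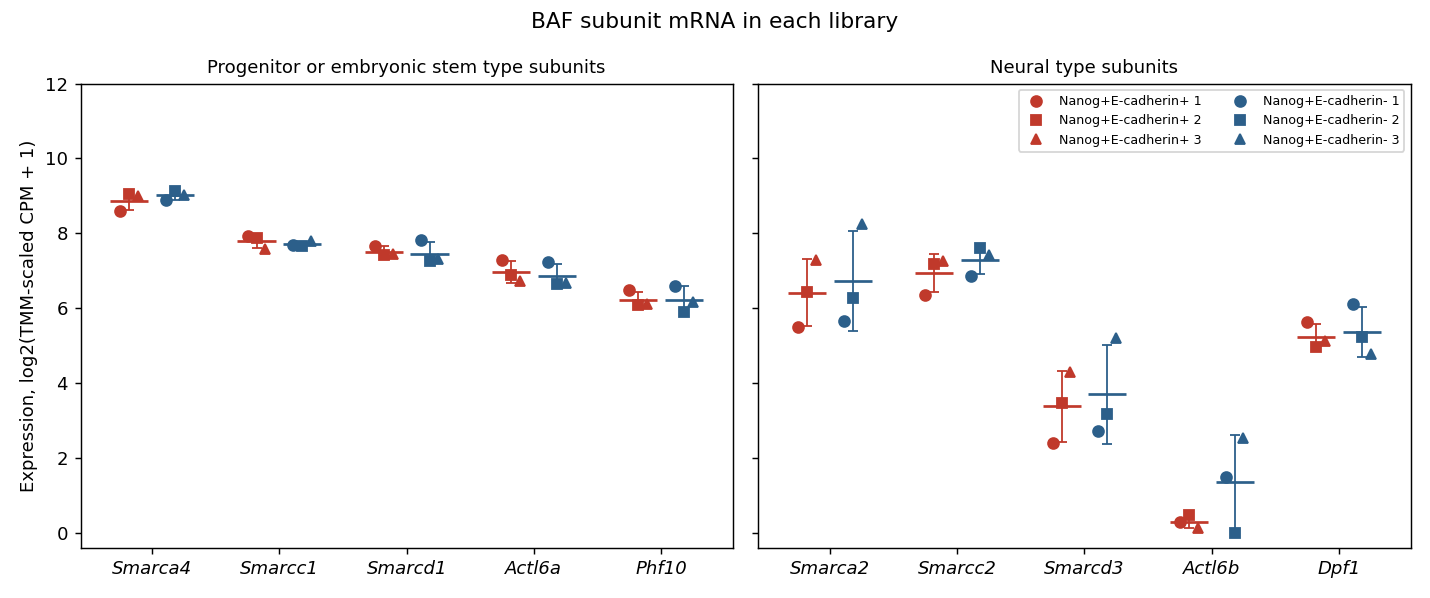
Expression of the 10 subunits in each library as log2(TMM-scaled CPM + 1), with progenitor-type genes on the left and neural-type genes on the right. Red is Nanog+E-cadherin+ and blue Nanog+E-cadherin-, symbols give the replicate number, and lines and bars give the mean and SD (n = 3). The populations overlap for all 10 genes, and the neural-type genes spread more widely over libraries, with Actl6b close to 0 in 4 of 6.

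Smarca4 is the ATPase that drives the complex in pluripotent cells. It stood at 383, 529 and 507 CPM in Nanog+E-cadherin+ replicates 1 to 3 and at 473, 559 and 523 CPM in Nanog+E-cadherin- replicates 1 to 3. It was the lower in the Nanog+E-cadherin+ library of each of the 3 replicate numbers, yet the groups overlapped. The log2 fold change was -0.13 ± 0.24 (SE; edgeR's quasi-likelihood test, adjusted p = 0.9999), and -0.14 ± 0.13 with the replicate block (adjusted p = 0.718).

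Its paralog Smarca2, the alternative ATPase, varied far more between replicate numbers than between populations. It stood at 44.5, 85.1 and 157 CPM in Nanog+E-cadherin+ replicates 1 to 3 and at 49.9, 76.2 and 301 CPM in Nanog+E-cadherin- replicates 1 to 3. Both libraries numbered 1 were low and both numbered 3 high, and the mean of log2 CPM in the number with the highest level exceeded that in the lowest by 2.20, or 4.61-fold. Within numbers 1, 2 and 3 the log2 ratio between populations was -0.17, 0.16 and -0.94. The fitted log2 fold change was -0.58 ± 0.72 (SE; edgeR's test, adjusted p = 0.9999) and rests on 1 library, since without Nanog+E-cadherin- replicate 3 it was 0.60. Leaving out both Nanog+E-cadherin- replicates 2 and 3 gave 0.93. With the block it was -0.32 ± 0.21 (adjusted p = 0.634), and without both libraries numbered 3 the blocked value was 0.0044. Per length it stood at 21.4, 44.7 and 67.4 TPM (transcript abundance corrected for length and library size) and at 23.95, 48.02 and 116 TPM in the same order of libraries.

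The transcript mix behind the Smarca2 value also differed between libraries. The files assign this gene a long and a short RefSeq transcript. For a gene RSEM reports the mean effective length (positions where a read can start) of its transcripts, weighted by abundance. That length was 2708, 4045 and 4499 bases in Nanog+E-cadherin+ replicates 1 to 3, against 2909, 3363 and 5813 bases in Nanog+E-cadherin- replicates 1 to 3. The order of the 6 libraries by length is the same as their order by CPM. For the other 9 genes it varied by 1.02-fold or less. Taking 5813 bases as the long transcript and 1962 bases, the length of the matching GENCODE M21 transcript, as the short, the short form would make up 80.6%, 45.9% and 34.1% of Smarca2 transcripts across Nanog+E-cadherin+ replicates 1 to 3 and would be 75.4%, 63.6% and 0% in Nanog+E-cadherin- replicates 1 to 3. The 0% is fixed by construction, since 5813 bases is that library's own value, while the matching long GENCODE transcript has 5921 bases. The 1962 bases are a full length and not an effective one. These shares are estimates from lengths, since the files hold no transcript counts, and the short length comes from a later annotation than the authors'. The populations overlap in both measures.

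**Figure D2:**
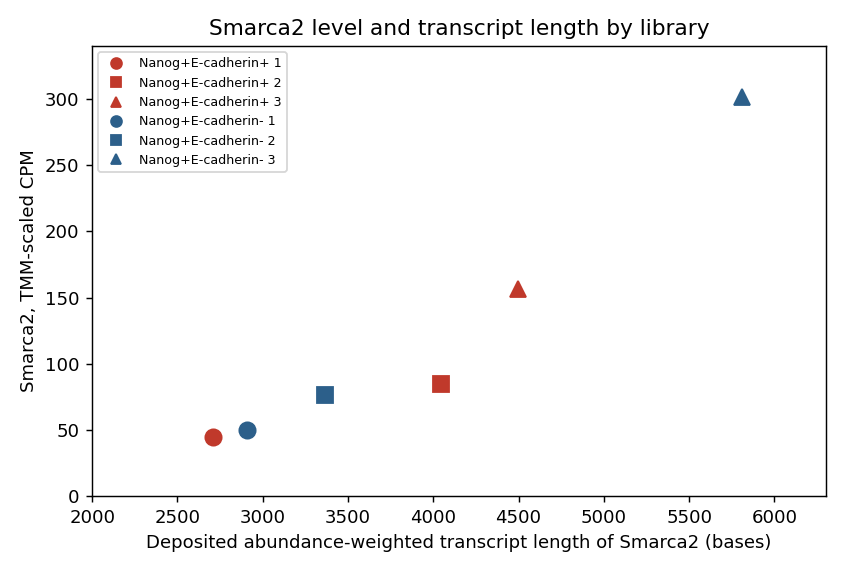
Smarca2 level in TMM-scaled CPM (vertical axis) against the abundance-weighted transcript length deposited for it, in bases (horizontal axis), 1 point per library. Red is Nanog+E-cadherin+, blue Nanog+E-cadherin-, and symbols give the replicate number. The libraries numbered 1 lie lowest, at 2708 and 2909 bases, and Nanog+E-cadherin- replicate 3 highest, at 5813 bases and 301 CPM.

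Smarcc1 and Smarcc2 are the paired scaffold proteins on which the complex is built. On the CPM scale Smarcc1 had the narrowest range of the 10 genes, with 243, 233 and 192 CPM in Nanog+E-cadherin+ replicates 1 to 3, against 207, 202 and 219 CPM in Nanog+E-cadherin- replicates 1 to 3, a 1.27-fold range over all 6 libraries. In TPM its range was 1.73-fold, wider than that of Actl6a (1.24-fold). It had a log2 fold change of 0.09 ± 0.20 (SE). Smarcc2, typical of neural cells, stood at 81.4, 145 and 153 CPM in Nanog+E-cadherin+ replicates 1 to 3 and at 116, 194 and 170.04 CPM in Nanog+E-cadherin- replicates 1 to 3. Its Nanog+E-cadherin+ library was the lower in each of the 3 replicate numbers, by 0.51, 0.42 and 0.15 on the log2 scale, although the groups overlapped. The log2 fold change was -0.34 ± 0.32 (SE) with group only and -0.36 ± 0.14 with the replicate block, where the unadjusted p was 0.0355 and the adjusted p 0.432 in edgeR's test. Smarcc2 thus did not pass over all genes, and its adjusted p over the alternatives ran from 0.0681, in the blocked fit without both libraries numbered 3, to 1. Without Nanog+E-cadherin- replicates 2 and 3 its log2 fold change was 0.12, with 1 library left in that group.

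**Figure D3:**
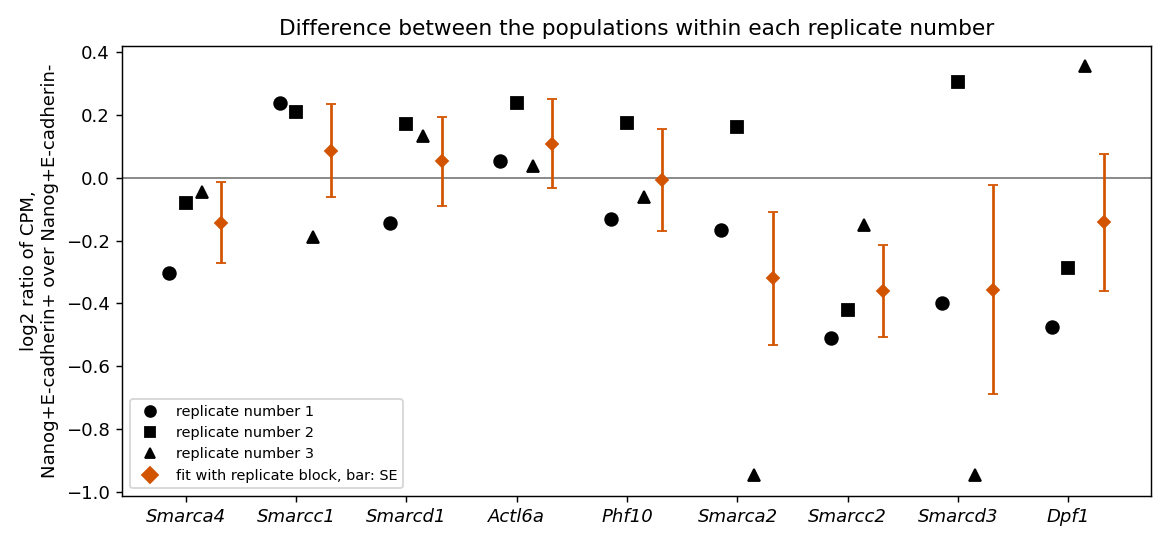
The log2 ratio of CPM between Nanog+E-cadherin+ and Nanog+E-cadherin- libraries of equal replicate number (black symbols) for the 9 subunits that passed the filter, beside the log2 fold change of the fit with the replicate block (orange, bar: SE). Smarca4 and Smarcc2 lie below 0 in all 3 numbers and Actl6a above 0 in all 3, while the other 6 genes change sign between numbers.

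Smarcd1 and Smarcd3 fill the position that links the complex to DNA-binding transcription factors. Smarcd1 stood at 203, 170.1 and 172 CPM in Nanog+E-cadherin+ replicates 1 to 3 and at 224, 151 and 157 CPM in Nanog+E-cadherin- replicates 1 to 3, with a log2 fold change of 0.03 ± 0.24 (SE), or -0.31 without Nanog+E-cadherin- replicates 2 and 3. Smarcd3 stood at 4.24, 9.98 and 18.5 CPM in Nanog+E-cadherin+ replicates 1 to 3 and at 5.58, 8.08 and 35.7 CPM in Nanog+E-cadherin- replicates 1 to 3. As for Smarca2, both libraries numbered 1 were lowest and both numbered 3 highest, and the level spanned 5.28-fold between the numbers. Its log2 fold change was -0.58 ± 0.81 (SE; edgeR's test, adjusted p = 0.9999), was 0.69 without Nanog+E-cadherin- replicate 3 and 0.97 without replicates 2 and 3 of that population, and was -0.36 ± 0.33 with the block (adjusted p = 0.729).

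Across the replicate numbers, the summed markers of several cell types differed as Smarca2 and Smarcd3 did, and others did not. The 4 astrocyte markers summed to 53.1, 351 and 907 CPM of library totals in Nanog+E-cadherin+ replicates 1 to 3 and to 26.6, 333 and 628 CPM in Nanog+E-cadherin- replicates 1 to 3. The 9 neural stem and radial glia markers summed to 1513, 2966 and 4511 CPM and to 1890, 3476 and 4367 CPM in the same order. Vim was the largest part of every sum of the second list, at 1034, 2168 and 3492 CPM and at 1209, 2642 and 3223 CPM. Prom1 and Msi1 of that list were highest in number 2 in both populations. Hes5 of that list fell from number 1 to number 3, at 135, 17.6 and 3.01 CPM and at 262, 24.9 and 8.70 CPM. So did the sum of neuron markers, at 950, 502 and 299 CPM and at 1370, 854 and 516 CPM. Markers of the oligodendrocyte lineage (6 genes) were highest in number 2, at 71.5, 171 and 150.3 CPM and at 70.9, 217 and 111 CPM. The part of these cell types in the levels of Smarca2 and Smarcd3 was not tested, and in bulk RNA fewer cells of a type and less RNA per cell cannot be told apart.

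The 250 bases before the start sites of Smarca2 and Smarcd3 are shown because these genes had the widest spread over replicate numbers among the 9 and the same order of numbers. They are RefSeq sequences of build GRCm38.p6, printed 5′ to 3′ on the gene's strand, and capitals mark GC boxes (GGGCGG on either strand, the Sp1 motif), of which a pair overlaps in Smarcd3. Smarca2 lies at chr19:26604910-26605159, plus strand, and Smarcd3 at chr5:24602003-24602252, minus strand.
Smarca2: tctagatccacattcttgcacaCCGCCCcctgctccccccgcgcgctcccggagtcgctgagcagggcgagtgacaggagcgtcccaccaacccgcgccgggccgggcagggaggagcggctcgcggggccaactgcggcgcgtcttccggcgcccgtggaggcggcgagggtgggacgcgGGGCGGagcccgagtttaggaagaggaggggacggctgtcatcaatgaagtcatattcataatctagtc
Smarcd3: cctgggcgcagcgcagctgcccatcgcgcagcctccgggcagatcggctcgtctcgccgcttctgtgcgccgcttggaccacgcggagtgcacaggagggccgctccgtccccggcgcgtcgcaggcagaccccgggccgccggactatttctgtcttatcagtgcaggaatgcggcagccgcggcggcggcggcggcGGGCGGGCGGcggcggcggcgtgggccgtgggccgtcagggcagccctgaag
Each window held 2 GC boxes, a motif found in 32.9% of 27018 RefSeq start windows of this length. CpG dinucleotides numbered 28 for Smarca2 and 38 for Smarcd3, against a median of 6 over all windows. Neither held the NF-Y box CCAAT, found in 34.5% of windows. These features are not particular to the pair. Over the listed subunits CpG ran from 15 (Actl6b) to 51 (Phf10). Only Smarcc2 and Actl6b lacked a GC box, and only Actl6b and Dpf1 held an NF-Y box.

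Actl6a and Actl6b are the actin-like subunits whose exchange marks the passage from dividing progenitor to neuron, and they showed the widest gap in level of any pair. Actl6a stood at 155, 117 and 104 CPM in Nanog+E-cadherin+ replicates 1 to 3 and at 149.8, 99.7 and 102 CPM in Nanog+E-cadherin- replicates 1 to 3. It was the higher in the Nanog+E-cadherin+ library of each number, by 0.05, 0.24 and 0.04 on the log2 scale, with a log2 fold change of 0.10 ± 0.26 (SE; edgeR's test, adjusted p = 0.9999). Without Nanog+E-cadherin- replicates 2 and 3 it was -0.26. Actl6b was below the filter and had expected counts of 4, 5 and 2 across Nanog+E-cadherin+ replicates 1 to 3, against 64, 0 and 46 in Nanog+E-cadherin- replicates 1 to 3.

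Actl6b was thus clearly detected in only 2 libraries, both Nanog+E-cadherin-. As CPM of the library total it stood at 1.61 (95% exact Poisson interval 1.24 to 2.06) in Nanog+E-cadherin- replicate 1 and at 5.20 (3.80 to 6.93) in replicate 3. In the Nanog+E-cadherin+ libraries it stood at 0.191 (0.0521 to 0.489), 0.405 (0.132 to 0.945) and 0.104 (0.0126 to 0.375). The count of 0 in Nanog+E-cadherin- replicate 2 has an interval that reaches 0.341 CPM, and 3 counts of that library are 0.277 CPM, so the groups overlap. These intervals cover counting error only. Within numbers 1 and 3 the Nanog+E-cadherin- library was above the Nanog+E-cadherin+ library with separate intervals, and within number 2 the intervals overlapped. With no filter on low counts, edgeR's test with group only gave Actl6b no unadjusted p under 0.05. It passed the filter when any single Nanog+E-cadherin+ library was left out, again with no unadjusted p under 0.05. Without Nanog+E-cadherin- replicate 2, the library with a count of 0, it passed the filter and had one. Leaving out number 2 removes the library that goes the other way, so such fits cannot show a difference between the populations. In the blocked fit without both libraries numbered 2 its log2 fold change was -4.18 ± 1.72 (SE). There edgeR's test gave an unadjusted p of 0.0153 and an adjusted p of 0.346. On the log2(TPM + 1) scale with all 6 libraries and the replicate block, limma gave a difference of -1.13 ± 0.67 (SE; adjusted p = 0.549), which did not pass. The sum of neuron markers was higher in the Nanog+E-cadherin- library of every number, and the part of neurons in the Actl6b counts was not tested. This sum was the lowest of that population in replicate 3 (516 CPM), where Actl6b was highest. Single genes of the list differed. Tubb3 fell with the sum, at 566, 265 and 81.2 CPM in Nanog+E-cadherin- replicates 1 to 3. Gad2, Dlx1 and Dlx2 were highest in replicate 3, at 14.7, 11.2 and 0.904 CPM, and the other genes of the list were not. That library also held 467 CPM of the genes taken as background sequence.

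The windows of 250 bases before both start sites are shown because the genes differ most in level and also in motif content. Capitals mark GC boxes (GGGCGG) and NF-Y boxes (CCAAT) on either strand, in RefSeq sequence of GRCm38.p6. Actl6a lies at chr3:32708296-32708545, plus strand, and Actl6b at chr5:137553296-137553545, plus strand.
Actl6a: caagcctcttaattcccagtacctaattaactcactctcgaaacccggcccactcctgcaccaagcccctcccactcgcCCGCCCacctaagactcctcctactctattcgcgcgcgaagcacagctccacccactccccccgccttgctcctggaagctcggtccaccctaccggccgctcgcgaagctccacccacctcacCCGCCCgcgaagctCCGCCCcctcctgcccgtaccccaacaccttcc
Actl6b: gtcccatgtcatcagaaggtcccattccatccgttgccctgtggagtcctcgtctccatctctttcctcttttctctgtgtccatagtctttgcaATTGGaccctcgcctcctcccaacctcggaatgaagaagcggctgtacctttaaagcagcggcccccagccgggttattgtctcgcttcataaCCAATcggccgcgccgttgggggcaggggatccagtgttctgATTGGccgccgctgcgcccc
Actl6a had 3 GC boxes and no NF-Y box, and Actl6b had 3 NF-Y boxes and no GC box. CpG dinucleotides numbered 19 and 15. Other motifs searched on both strands were the E-box CACGTG (in 6.05% of windows), the cell cycle motif TTTGAA (16.3%) and the left and right arms of the Rest binding site, TTCAGCACC (0.285%) and GGACAG (18.7%). None of these letters was found in the windows of Actl6a and Actl6b.

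Phf10 and Dpf1 belong to the family of histone-reading subunits exchanged at the same step. Phf10 stood at 87.9, 66.4 and 67.8 CPM in Nanog+E-cadherin+ replicates 1 to 3 and at 96.4, 58.9 and 70.7 CPM in Nanog+E-cadherin- replicates 1 to 3, with a log2 fold change of -0.03 ± 0.26 (SE). Dpf1, the neuronal form, stood at 48.6, 30.1 and 33.7 CPM and at 67.6, 36.7 and 26.3 CPM in the same order. In CPM, unlike Smarca2 and Smarcd3, Dpf1 was highest in both libraries numbered 1. These also had the highest sums of neuron markers (950 and 1370 CPM). In TPM Dpf1 stood at 27.94, 28.39 and 28.95 and at 41.66, 34.43 and 26.25 in the same order. On that scale number 1 was the highest in Nanog+E-cadherin- cells only. The part of neurons in Dpf1 was not tested. Its log2 fold change was -0.22 ± 0.39 (SE; edgeR's test, adjusted p = 0.9999), and 0.26 without Nanog+E-cadherin- replicate 1.

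Across genes, levels were compared as TPM, which corrects for length. Smarca4 had the highest mean TPM of the 10 in both populations (135 ± 51.4 and 157 ± 47.1, SD, n = 3 each) and the highest value in 4 libraries. In both libraries numbered 1 Actl6a was the highest. Behind them in both populations came Actl6a, Smarcd1, Phf10, Smarcc1, Smarcc2, Smarca2, Dpf1, Smarcd3 and Actl6b. The ranges of neighbours in this order overlapped, except between Dpf1, Smarcd3 and Actl6b in Nanog+E-cadherin+ cells and between Smarcd1 and Phf10 in Nanog+E-cadherin- cells. Actl6b was the lowest of the 10 in all 6 libraries, and all 5 progenitor-type subunits stayed at or above 50.4 TPM in every library.

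The progenitor-type subunit exceeded its neural-type paralog in TPM in all 6 libraries for every pair except Smarcc1 and Smarcc2. There the log2 ratio of (TPM + 1) was 1.26, 0.40 and 0.05 over Nanog+E-cadherin+ replicates 1 to 3 and took values of 0.54, -0.20 and 0.10 over Nanog+E-cadherin- replicates 1 to 3, so both scaffolds were close to equal in the libraries numbered 3. The mean log2 ratio was higher in Nanog+E-cadherin+ cells for all 5 pairs, by 0.10 for Smarca4 over Smarca2, 0.42 for Smarcc1 over Smarcc2, 0.36 for Smarcd1 over Smarcd3, 1.14 for Actl6a over Actl6b and 0.12 for Phf10 over Dpf1. Each pair was higher in 2 of 3 replicate numbers, and the groups overlapped for all 5. Single libraries moved these differences: Smarcc1 over Smarcc2 was at 0.0785 when Nanog+E-cadherin+ replicate 1 was left out, 0.68 when replicate 3 of that population was, and 0.25 when Nanog+E-cadherin- replicate 2 was. Actl6a over Actl6b was at 0.40 without Nanog+E-cadherin- replicate 3 and 1.86 without replicate 2. Without Nanog+E-cadherin- replicate 3 the difference was -0.34 for Smarca4 over Smarca2 and -0.46 for Smarcd1 over Smarcd3. It was also below 0 for Smarcd1 over Smarcd3 without Nanog+E-cadherin+ replicate 1 (-0.18), for Smarca4 over Smarca2 without Nanog+E-cadherin+ replicate 2 (-0.0521) and for Phf10 over Dpf1 without Nanog+E-cadherin- replicate 1 (-0.0521). The Smarca4 ratio depends on the length used for Smarca2: with a fixed length it ran from 0.66 to 3.01 over libraries, against 0.66 to 2.05 with the deposited lengths, and its difference between populations was 0.17.

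As a share of the TPM of its family, Smarca2 made up 24.2% ± 5.54 of both ATPases in Nanog+E-cadherin+ cells and 26.1% ± 10.98 in Nanog+E-cadherin- cells (SD, n = 3 each). Smarcc2 made up 40.3% ± 10.3 against 47.4% ± 6.55 of the scaffolds. Smarcd3 was 5.47% ± 3.81 against 8.80% ± 9.42 of the Smarcd family of 3 genes, in which Smarcd1 (47.7% and 47.2%) and Smarcd2 (46.9% and 44.05%) were nearly equal. Actl6b reached 5.74% of its pair at most, in Nanog+E-cadherin- replicate 3, and 0.410% or less in Nanog+E-cadherin+ libraries. In the family of Phf10, Dpf1, Dpf2 and Dpf3, Dpf1 held 14.1% ± 1.89 against 15.3% ± 4.37, and the neuronal Dpf3 held at most 1.05%. Dpf2, which is outside the pair ratios, held the largest mean share (45.4% and 45.8%), ahead of Phf10 (39.6% and 38.3%).

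**Figure D4:**
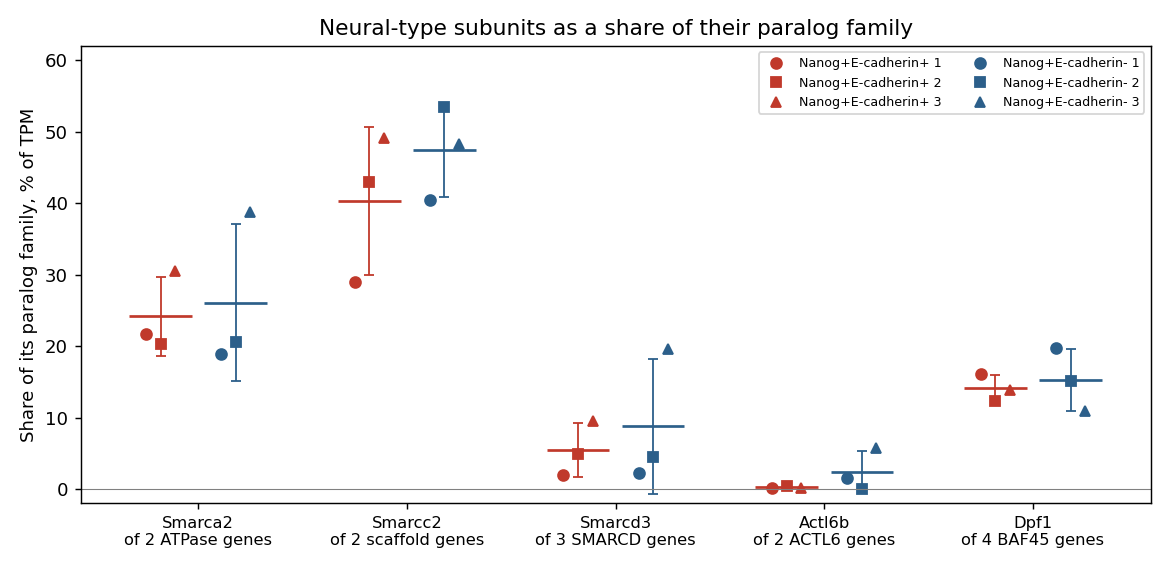
Each neural-type subunit as a percentage of the summed TPM of its paralog family (vertical axis), by library. Red is Nanog+E-cadherin+, blue Nanog+E-cadherin-, symbols give the replicate number, and lines and bars the mean and SD (n = 3). Smarcc2 reached the highest shares, up to 53.5%, and Actl6b the lowest, and the populations overlap for all 5.

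Other subunits of BAF complexes and of their PBAF and ncBAF relatives also gave no calls. All 19 listed genes were tested. In edgeR's test with group only 0 passed and 0 had an unadjusted p under 0.05, and with the block 0 passed and 2 had one (Bcl7a and Gltscr1), where 10.7% of all genes had one with the block and 2.67% with group only. DESeq2 and limma-voom called 0 as well. With group only 11 of 19 were fitted lower and the median log2 fold change was -0.04, beside -0.01 over all genes. The libraries of both populations did not overlap for 1 gene of 19, against 6.98% of all genes. This was Bcl7a, a subunit shared by the complexes, which stood at 50.01, 61.4 and 46.4 CPM in Nanog+E-cadherin+ replicates 1 to 3 and at 68.7, 78.2 and 69.5 CPM in Nanog+E-cadherin- replicates 1 to 3. Its log2 fold change was -0.46 ± 0.21 (SE; edgeR's test, adjusted p = 0.9999), and the adjusted p was 0.378 with the block. Gltscr1, which defines ncBAF, had a log2 fold change of -0.57 ± 0.35 (SE) and its paralog Bicral one of -0.34 ± 0.33. Both were lower in the Nanog+E-cadherin+ library of each number. With the block Gltscr1 was at -0.56 ± 0.17, where the unadjusted p was 0.00959 and the adjusted p 0.286 in edgeR's test. Pbrm1, the defining subunit of PBAF, had a log2 fold change of 0.21 ± 0.23. Arid2, also of PBAF, and Arid1a, the DNA-binding subunit of canonical BAF, each had one of -0.25 (SE 0.30 and 0.33).

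The genes whose log2 CPM followed Smarcc1 most closely over the 6 libraries were Dsc2, Skiv2l2 and Zranb2 (Pearson's r = 0.98, 0.97 and 0.96), and those closest to Actl6b were Nudt7, Fgf11 and Chml (r = 0.98, 0.97 and 0.97). These are the highest of 13460 genes over 6 points that share libraries and depth, and are given as a description.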

How the data were processed

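Bowtie, RSEM 1.2.4 and build mm9 appear in the submitters' processing notes. Settings and strand use are not given in these sources, so antisense reads cannot be told apart. Per the file headers, the authors' RSEM tables hold expected counts, TPM, FPKM (not used) and lengths by gene. RSEM divides reads that match paralogs, so low counts of Actl6b are uncertain. Expected counts were rounded and tested with edgeR 4.0.16 in R 4.3.3 (TMM, filterByExpr with minimum count 10 and total 15, quasi-likelihood, group only, Benjamini-Hochberg over all genes). Alternatives used DESeq2 1.42.0, limma 3.58.1, other scalings and filters, left-out libraries and the authors' TPM as log2(TPM + 1) and log2(TPM + 0.1). At 8851110 counts, 3 counts are 0.339 CPM. The fits were tested on simulated data with a smaller spread between libraries than these data have, so that run does not measure their power here.

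Both groups carry numbers 1 to 3. Deviations from the group means correlated across genes at 0.41 to 0.75 for equal and -0.62 to 0.12 for unequal numbers. The blocked fits therefore take the numbers as pairs, from the values and not the labels. The main fit has group only and ignores this pairing. Its common coefficient of variation between libraries was 0.499, against 0.285 with the block. The members and lists were chosen with earlier results of these data known. All members were named, and of the other subunits those passing in either fit and the 6 of smallest p with group only. For Smarcc1 and Actl6b the 3 genes of highest correlation were named. Promoter motifs and the sequences shown were chosen after the data had been seen. Bicral was matched through its RefSeq accession.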

Additional observations from a re-analysis of the deposited data

How the results depend on the processing

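No subunit passed in any of the 22 alternatives, and 31 of 198 fitted log2 fold changes had the opposite sign to the main value. The 198 values are not all separate. On log2(TPM + 1) neither the filter nor the block can alter a fold change, since each number has 1 library per group. Fits that differ only in these repeat the same value. Without 1 library each, the values ran from -0.21 to 0.0014 for Smarca4, 0.0263 to 0.22 for Smarcc1, -0.52 to -0.097 for Smarcc2, -0.0664 to 0.25 for Smarcd1, -0.0771 to 0.33 for Actl6a, -0.17 to 0.20 for Phf10, -1.10 to 0.60 for Smarca2, -1.17 to 0.69 for Smarcd3 and -0.48 to 0.26 for Dpf1. On the TPM scale Smarcc1 was at -0.0161 with either pseudocount, with no filter and with the block, and Smarcd1 at -0.0477, or -0.0482 with a pseudocount of 0.1. With the replicate block and 1 number left out, Smarcd1 was at -0.0037 (without 2), Phf10 at 0.0699 (without 1) and 0.0245 (without 3), Smarca2 at 0.0044 (without 3) and Dpf1 at 0.0483 (without 1). DESeq2 with the block gave 0.0057 for Phf10, and limma-voom with group only gave 0.0784 for Smarcd3. Without both Nanog+E-cadherin- libraries 2 and 3 the values were -0.31 for Smarcd1, -0.26 for Actl6a, 0.93 for Smarca2, 0.12 for Smarcc2, 0.97 for Smarcd3, -0.0049 for Smarca4, 0.11 for Smarcc1, -0.38 for Phf10 and -0.85 for Dpf1, with 1 library left in that group and assumed to vary like the others. The cause of these changes was not tested.

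The count over all genes was 0 with group only, 1 without a filter and 13 in DESeq2. With the replicate block it was 41, 304 in DESeq2 and 264 in limma-voom (this last, and the TPM fit with the block, added after seeing the data), and 182, 140 and 449 without numbers 1, 2 and 3. The block changed no call of a subunit. The 5 ratio differences moved by less than the larger SD of the 2 groups in all 10 alternatives, although 3 of them turned sign without single libraries. The replicate block is 1 of the 10 and equals the main value by construction, so it could not move. Of these alternatives the fixed length was chosen after seeing the data. Depth limits Actl6b and Dpf3.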

Other observations

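Regulators of the neural subunit exchange were not called as different between the populations either. Rest, the repressor of neuronal genes that acts above the exchange of the actin-like subunits, stood at 13.5, 30.7 and 25.7 CPM in Nanog+E-cadherin+ replicates 1 to 3 and at 15.6, 18.4 and 28.6 CPM in Nanog+E-cadherin- replicates 1 to 3 (log2 fold change 0.17 ± 0.40, SE). Ptbp1, the splicing repressor of non-neuronal cells and progenitors, stood at 993, 798 and 812 against 899, 648 and 641 CPM, and was the higher in the Nanog+E-cadherin+ library of each number. Its neural paralog Ptbp2 stood at 30.1, 27.99 and 18.1 against 40.9, 21.1 and 52.4 CPM, highest in Nanog+E-cadherin- replicate 3, the library with the highest Actl6b, Smarca2 and Smarcd3. None of the 3 passed edgeR's test in either fit, with adjusted p of 0.9999 for each with group only and of 0.892, 0.490 and 0.625 with the block.

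Arid1a made up 70.8% ± 1.84 of the TPM of the Arid genes in Nanog+E-cadherin+ cells and 72.4% ± 4.70 in Nanog+E-cadherin- cells, and Ss18 made up 94.7% ± 1.45 and 94.0% ± 1.74 of its pair with the neuronal Ss18l1 (SD, n = 3 each). Bcl7a made up 13.6% ± 3.93 against 19.8% ± 5.82 of the Bcl7 genes, with overlap between the groups. Gltscr1 made up 62.3%, 62.2% and 66.9% of its pair with Bicral across Nanog+E-cadherin+ replicates 1 to 3, against 66.9%, 68.3% and 67.6% in Nanog+E-cadherin- replicates 1 to 3, where the groups touch without overlap (66.87% against 66.95%). No test was made on these shares.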
